A study of Mus musculus with 6 samples.

Results

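The MYC, MAX and MXD network was taken as 10 genes chosen by symbol, Myc, Mycn, Mycl, Max, Mxd1, Mxd3, Mxd4, Mxi1, Mnt and Mlx, and all 10 were found among the 53677 genes of the deposited table. The RNA came from short-term hematopoietic stem cells (ST-HSC), multipotent progenitors of limited self-renewal, sorted from bone marrow as cells that lack lineage markers and CD150 and carry Kit and CD48, taken from C57BL/6J mice. One group of mice expressed dnTCF4 (genotype label dnTCF4+/+), a dominant-negative form of the transcription factor TCF4 designed to keep β-catenin from activating TCF target genes, and the controls of this comparison were wild-type (WT) mice labelled dnTCF4-/-, with 3 libraries of each genotype. The series description speaks of 3 mice per genotype. The labels and series description used here name neither ages nor the promoter that drives dnTCF4.

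MYC proteins are basic helix-loop-helix leucine zipper transcription factors that bind DNA only after pairing with MAX. The MYC-MAX dimer recognises the E-box CACGTG and activates genes of growth, ribosome production and the cell cycle. MXD proteins, MXI1 and MNT compete for MAX, bind the same E-box and repress through the SIN3 histone deacetylase complex, while MLX is the MAX-like partner of the nutrient-responsive factors MLXIP and MLXIPL. Myc is a classic target of Wnt signalling through β-catenin and TCF in colon cancer cells, and in mouse bone marrow MYC helps set the balance between self-renewal and differentiation.

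The E-box itself was looked for in the promoters of the network, because it is the sequence that these factors bind. RefSeq promoter windows (build GRCm38.p6, 250 bases before to 50 after a gene start) were at hand for 9 of the 10 genes, and Myc was not among them. The letters CACGTG, a palindrome that reads the same on both strands, were found in the windows of 4 of these 9 genes, Max, Mxd4, Mnt and Mlx. Of all 27025 genes with a window, 8.09% held the motif, and of the 7790 tested here 12.2% did. The 4 windows are printed 5′ to 3′ on the strand of the gene, with the E-box in capitals.
Max, chr12:76962199-76962498, minus strand: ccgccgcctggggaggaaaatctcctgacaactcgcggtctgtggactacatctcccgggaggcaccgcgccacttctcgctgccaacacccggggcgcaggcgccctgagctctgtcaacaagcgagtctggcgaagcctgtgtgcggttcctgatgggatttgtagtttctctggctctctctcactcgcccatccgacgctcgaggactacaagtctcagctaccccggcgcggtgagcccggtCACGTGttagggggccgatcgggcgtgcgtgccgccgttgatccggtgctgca
Mxd4, chr5:34187661-34187960, minus strand: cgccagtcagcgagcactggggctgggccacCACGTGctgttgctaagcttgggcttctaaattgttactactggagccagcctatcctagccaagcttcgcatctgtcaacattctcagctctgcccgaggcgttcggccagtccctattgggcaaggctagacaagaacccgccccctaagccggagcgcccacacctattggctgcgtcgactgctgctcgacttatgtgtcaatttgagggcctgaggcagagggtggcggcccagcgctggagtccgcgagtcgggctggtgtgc
Mnt, chr11:74830674-74830973, plus strand: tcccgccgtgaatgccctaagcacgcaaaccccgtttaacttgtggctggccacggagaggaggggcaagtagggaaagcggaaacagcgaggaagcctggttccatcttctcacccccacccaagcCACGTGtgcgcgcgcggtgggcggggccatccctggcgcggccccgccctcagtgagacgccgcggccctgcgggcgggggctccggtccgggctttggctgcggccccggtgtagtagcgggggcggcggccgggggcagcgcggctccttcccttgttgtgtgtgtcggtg
Mlx, chr11:101087040-101087339, plus strand: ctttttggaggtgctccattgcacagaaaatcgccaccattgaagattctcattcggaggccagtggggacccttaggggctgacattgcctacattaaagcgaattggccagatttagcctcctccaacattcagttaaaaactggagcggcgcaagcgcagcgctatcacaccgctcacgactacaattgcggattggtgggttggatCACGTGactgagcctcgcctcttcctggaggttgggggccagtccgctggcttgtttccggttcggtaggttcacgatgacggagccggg

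In these windows the E-box of Max began 3 bases before the annotated start, that of Mlx 40 bases before it, that of Mnt 123 and that of Mxd4 219. The core CTTTGA of the TCF/LEF recognition sequence, searched on both strands with no overlap with the E-box, was found in the window of 1 of the 9 genes, Mycn, against 18.2% of all genes with a window. A match of letters is a description of the sequence and does not show binding.

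Some features of the libraries bear on every value that follows. Libraries held 57400000 to 110900000 counted reads in dnTCF4 and 61800000 to 67700000 in WT. Immunoglobulin genes took 3.27% to 6.33% of summed RPKM (reads scaled to gene length and library size) in dnTCF4 and 25.5% to 44.1% in WT, so that other genes have a smaller part of each WT library. Over the 11326 genes tested, the median log2 fold change was 0.14 in the deposited values, -0.05 under median ratio scaling and -0.02 without immunoglobulin genes, and the members are read against this shift. Tcf7l2, which encodes TCF4, was at 2.15, 1.99 and 2.80 RPKM in dnTCF4 replicates 1, 2 and 3, against 1.56, 1.29 and 1.69 RPKM in WT, and did not pass the test (limma adjusted p = 0.52). Of the sort genes, Kit averaged 69.1 and 64.2 RPKM in dnTCF4 and WT, Cd48 1190 and 901 RPKM, and Slamf1, which encodes CD150, 0.969 and 0.931 RPKM. The 12 markers of B and plasma cells summed to 5070 to 11600 RPKM in dnTCF4 and 50700 to 95700 RPKM in WT, and 7 of their 10 tested members had groups that did not overlap, all lower in dnTCF4. The 11 neutrophil markers summed to 3680 to 7690 RPKM in dnTCF4 and 950 to 3620 RPKM in WT, the 8 erythroblast markers to 50.4 to 100 and 18.3 to 33.3 RPKM, and the 7 megakaryocyte markers to 177 to 195 and 91.9 to 116 RPKM. Groups were apart, higher in dnTCF4, for 1 of 10 tested neutrophil markers (S100a8), 3 of 5 erythroblast markers and 2 of 5 megakaryocyte markers, while the neutrophil marker Elane averaged 480 RPKM in dnTCF4 and 673 RPKM in WT with groups that overlapped. The summed markers of monocytes (190 to 265 and 219 to 295 RPKM), T and NK cells (5.55 to 11.5 and 4.39 to 8.64 RPKM) and mast cells and basophils (296 to 489 and 348 to 579 RPKM) overlapped between dnTCF4 and WT, and no marker of any list was at 0 in all 6 libraries. Single markers were apart within these sums, with 2 of 6 tested for monocytes and 1 of 3 for T and NK cells higher in dnTCF4, and 3 of 5 for mast cells and basophils lower, among them Mcpt8, which averaged 51.9 RPKM in dnTCF4 and 105 RPKM in WT. Of the markers counted as apart, 2 passed the filter of a mean of 1 RPKM only through their higher group. These were Irf4 of the B and plasma cell list (means of 0.449 RPKM in dnTCF4 and 1.72 RPKM in WT) and Klf1 of the erythroblast list (1.62 and 0.617 RPKM). Beside these marker counts, 15.4% of all genes tested were apart with dnTCF4 higher and 17.7% in either direction. The part of these other cells in the values of the network was not tested. In sorted bulk RNA, fewer cells of a kind and less RNA per cell cannot be told apart.

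Within the network, levels per length kept the same order of means in both genotypes. Mlx was highest, at a mean of 46.6 RPKM in dnTCF4 and 38.8 RPKM in WT, followed by Myc, Max, Mxd4 and Mycn, each with a range clear of its neighbours in either genotype. Mxi1, Mnt, Mxd3 and Mxd1 came next, with ranges that overlapped from each gene to the next, and Mycl was lowest. Over the 6 libraries Mlx lay above 86.1% of the genes tested, Myc above 76.6%, Max above 61.4% and Mxd4 above 51.7%, while Mycn lay above 33.8% and Mxd1 above 4.99%. Mycl did not reach the mean of 1 RPKM needed for testing, so 9 of the 10 members were tested. Mxd1 passed this filter with a WT mean of 0.925 RPKM, that is, through its dnTCF4 values.

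**Figure D1:**
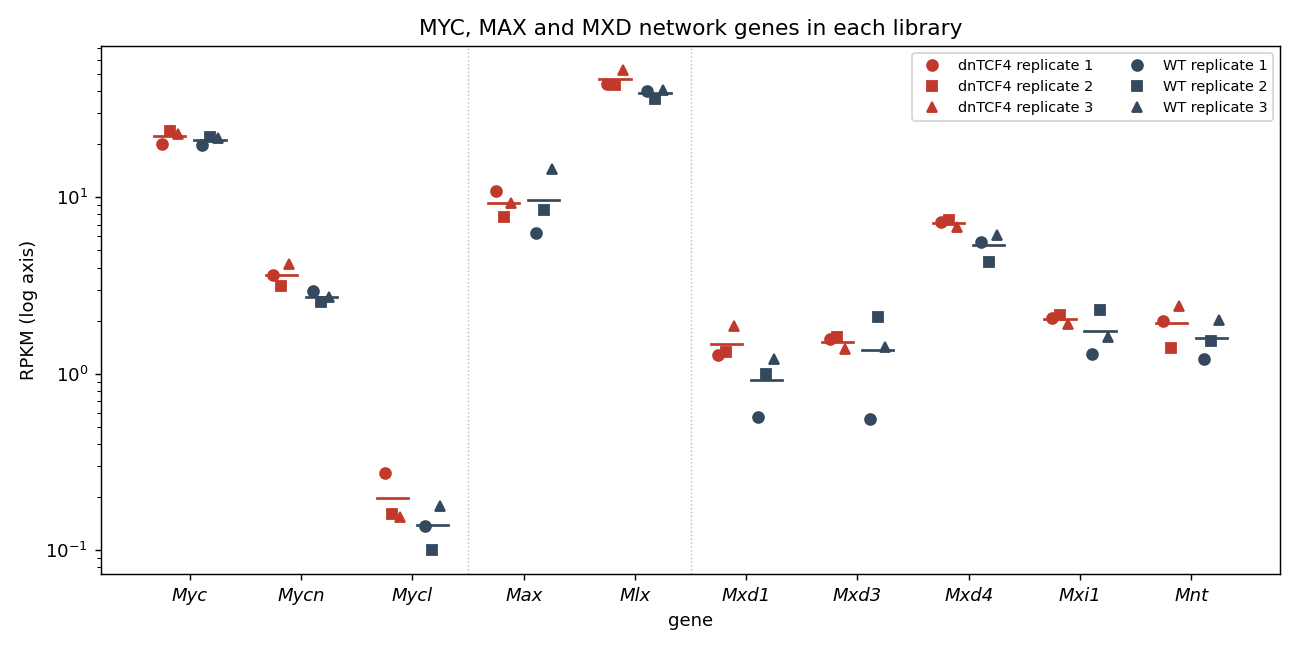
RPKM (log axis) of the 10 network genes in each library, dnTCF4 (red) left of WT (dark blue), with the replicate number given by the symbol and group means as lines. Mlx and Myc stand highest, Mycl stays below 0.3 RPKM in all 6 libraries, and the WT libraries are spread most widely for Max and Mxd3.

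Myc itself, the Wnt target of the network, differed little between the genotypes. Myc (GRCm38 chromosome 15, 61985391 to 61990374) was at 20.1, 23.9 and 22.7 RPKM in dnTCF4 replicates 1, 2 and 3, against 19.8, 22 and 21.8 RPKM in WT. The groups overlapped, and replicate 1 was the lowest library of both genotypes. The means were 22.2 ± 1.91 RPKM in dnTCF4 and 21.2 ± 1.21 RPKM in WT (SD, n = 3 each), from 3417 to 7195 reads per library. The log2 fold change, dnTCF4 minus WT on log2(RPKM + 1), was 0.06 (SE 0.16, 95% confidence interval -0.32 to 0.45, limma adjusted p = 0.87). Its sign turned to -0.16 (interval -0.57 to 0.25) under median ratio scaling and to -0.13 (interval -0.53 to 0.27) without immunoglobulin genes. All 3 intervals stay within 0.57 of 0, so they leave room for a modest difference either way and for none as large as a doubling.

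Its paralogs were scarcer. Mycn (chromosome 12, 12936093 to 12941914), known for its part in neural and early hematopoietic progenitors, was at 3.61, 3.16 and 4.17 RPKM in dnTCF4 replicates 1, 2 and 3, against 2.95, 2.55 and 2.71 RPKM in WT. All 3 dnTCF4 libraries were above all 3 WT libraries (exact two-sided permutation p = 0.1, the smallest that 3 against 3 can give). The log2 fold change was 0.31 (SE 0.16, interval -0.07 to 0.69) and did not pass (limma adjusted p = 0.6). The groups overlapped under median ratio scaling, with a log2 fold change of 0.13. Mycl was at 0.275, 0.161 and 0.155 RPKM in dnTCF4 and at 0.137, 0.1 and 0.179 RPKM in WT, from 70, 72 and 36 reads in dnTCF4 and 35, 25 and 49 reads in WT, with groups that overlapped. As shares of the summed RPKM of Myc, Mycn and Mycl, Myc made up 83.8%, 87.8% and 84.0% in dnTCF4 and 86.5%, 89.3% and 88.3% in WT. Mycn made up 15.0%, 11.6% and 15.4% in dnTCF4 and 12.9%, 10.3% and 11% in WT. These shares do not depend on the scaling between libraries, and they overlapped between the genotypes.

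The shared partners came next. Max (chromosome 12, 76937269 to 76962201), the obligate partner of MYC and of its antagonists, was at 10.9, 7.69 and 9.27 RPKM in dnTCF4 replicates 1, 2 and 3, against 6.27, 8.46 and 14.4 RPKM in WT. The WT libraries enclosed the dnTCF4 libraries, and the SD was 4.19 RPKM in WT and 1.59 RPKM in dnTCF4. The log2 fold change was 0.00 (SE 0.30, interval -0.69 to 0.70, limma adjusted p = 1.0). It was 0.30 without WT replicate 3, -0.24 without WT replicate 1, 0.12 without dnTCF4 replicate 2 and -0.11 without dnTCF4 replicate 1. Under median ratio scaling it was -0.21 and without immunoglobulin genes -0.18, so no direction is given for Max. Mlx (chromosome 11, 101087277 to 101092207), the MAX-like partner, was at 43.7, 43.5 and 52.7 RPKM in dnTCF4, against 39.8, 35.9 and 40.5 RPKM in WT. These groups did not overlap, and the log2 fold change was 0.26 (SE 0.17, limma adjusted p = 0.66). It was 0.03 under median ratio scaling, where the groups overlapped. On the opposite strand, Psmc3ip shares 19.3% of the exon bases of Mlx. It was at 49.7, 40.5 and 30.4 RPKM in dnTCF4 and 46.5, 51.6 and 52.2 RPKM in WT, and since the library chemistry does not mark strand, reads of the shared stretch cannot be told apart.

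Among the antagonists, Mxd4 was the most abundant and Mxd1 showed the largest ratio of means among the tested members. Mxd4 (chromosome 5, 34173883 to 34187720), a repressor linked to differentiation and resting cells, was at 7.26, 7.42 and 6.77 RPKM in dnTCF4 replicates 1, 2 and 3, against 5.61, 4.31 and 6.11 RPKM in WT. The dnTCF4 libraries were all higher, with a log2 fold change of 0.37 (SE 0.18, interval -0.05 to 0.79, limma adjusted p = 0.58). Mxd1 (chromosome 6, 86647042 to 86669161), which in mice restrains the division of granulocyte precursors, was at 1.27, 1.32 and 1.86 RPKM in dnTCF4, against 0.572, 0.994 and 1.21 RPKM in WT. These groups did not overlap either, and the means differed 1.60-fold. The log2 fold change was 0.37 (SE 0.18, interval -0.06 to 0.81, limma adjusted p = 0.58), and 0.66 with a pseudocount of 0.1. Mxd1 was the 1 member whose groups stayed apart under median ratio scaling, at 1.22, 1.27 and 1.57 in dnTCF4 and 0.701, 1.09 and 1.15 in WT on that scale. Without immunoglobulin genes they overlapped, since the lowest dnTCF4 library was at 1.18 and the highest WT library at 1.24.

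The remaining antagonists overlapped between the genotypes. Mxd3 (chromosome 13, 55325168 to 55329823), a member expressed in dividing cells, was at 1.57, 1.61 and 1.39 RPKM in dnTCF4 and at 0.552, 2.11 and 1.42 RPKM in WT. WT replicates 1 and 2 were the lowest and the highest of the 6 libraries, and without WT replicate 1 the log2 fold change of 0.15 became -0.12. Mxi1 (chromosome 19, 53310518 to 53375810) was at 2.07, 2.15 and 1.91 RPKM in dnTCF4 and 1.30, 2.29 and 1.62 RPKM in WT (log2 fold change 0.17). Mnt (chromosome 11, 74830920 to 74845725), the broadly expressed antagonist, was at 1.99, 1.40 and 2.43 RPKM in dnTCF4 and 1.22, 1.53 and 2.02 RPKM in WT (log2 fold change 0.18). For Mxd3, Mxi1 and Mnt, limma adjusted p was 0.81, 0.73 and 0.74. Mxd3 shares 4.43% of its exon bases with Prelid1 on the opposite strand.

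Counted together, 0 of the 9 tested members were called between dnTCF4 and WT (limma, adjusted p under 0.05), against 0.3% of all genes tested. At an unadjusted p under 0.05 the count was again 0, where 9.62% of all genes passed. With the replicate block 1 member, Mxd1, had an unadjusted p under 0.05 (0.027, limma adjusted p = 0.28), where 14.9% of all genes did, and 0 were called, against 0.433% of all genes. The 95% interval of Mxd1 in that fit was 0.06 to 0.68, and those of the other tested members included 0. Voom on recovered reads called 0 of 8 members, against 0.174% of all genes, and 0 had an unadjusted p under 0.05, against 6.75% of all genes. The groups did not overlap for 4 of the 9 members, Mycn, Mxd1, Mxd4 and Mlx, all higher in dnTCF4, where 15.4% of all genes tested were apart in that direction. After median ratio scaling this held for 1 of 9, Mxd1, against 5.23% of all genes, and without immunoglobulin genes for 0 of 9, against 5.9%. Mxd1 is in these counts although it passed the filter on low values only through its dnTCF4 level. All 9 had a log2 fold change above 0, Max by the least (0.00), where 68.5% of all genes did. Under median ratio scaling 7 of 9 were above 0, against 41.5% of all genes, and without immunoglobulin genes 7 of 9, against 46.6%. The members' median log2 fold change was 0.18, beside 0.14 for all genes tested, 0.03 beside -0.05 under median ratio scaling and 0.05 beside -0.02 without immunoglobulin genes.

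**Figure D2:**
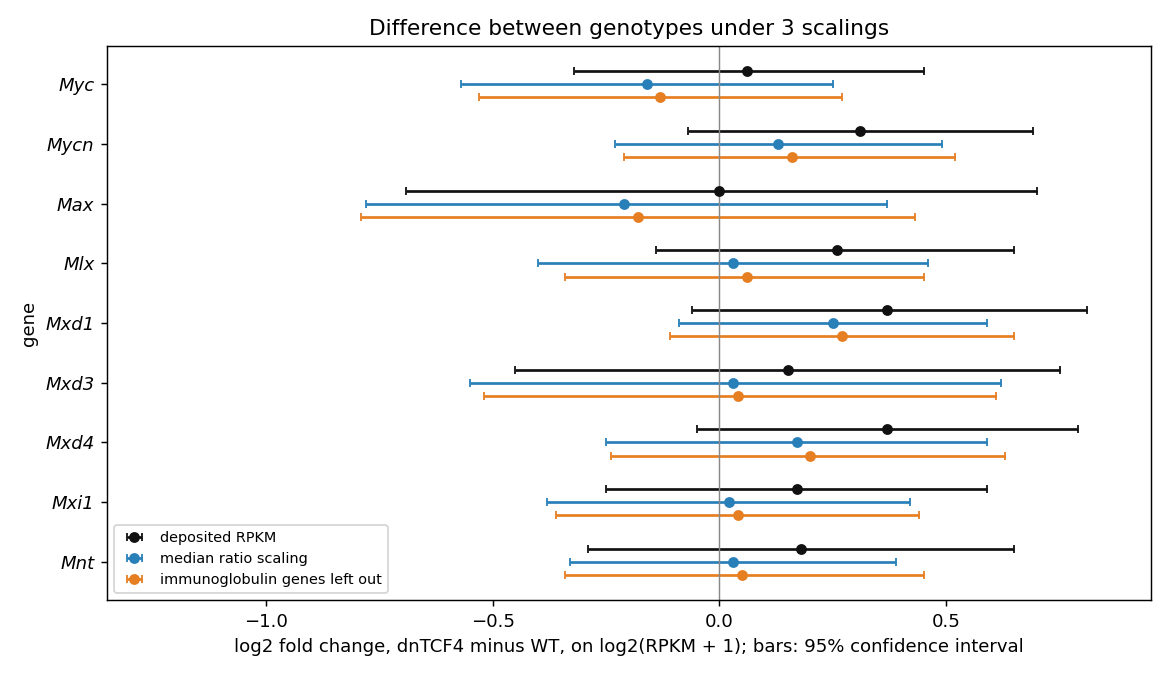
Log2 fold change (dnTCF4 minus WT, on log2(RPKM + 1)) of the 9 tested members with 95% confidence intervals, for deposited RPKM (black), median ratio scaling (blue) and immunoglobulin genes left out (orange). Every interval of these fits, which leave out the pairing of libraries, includes 0. In each gene both rescaled values lie to the left of the deposited one, with Myc and Max moving below 0.

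Replicates 2 and 3 were also compared on their own, because Ddx3y, a Y-linked gene, was at 24.8 RPKM in dnTCF4 replicate 1 and 30.5 RPKM in WT replicate 1 and at 0 in the other 4 libraries. In these 4 libraries the log2 fold change was 0.08 for Myc, 0.36 for Mycn, 0.29 for Mxd1, 0.40 for Mxd4 and 0.32 for Mlx, and -0.35 for Max and -0.14 for Mxd3. In all 6 libraries dnTCF4 was above WT in each of the 3 same-numbered pairs for 5 of the 9 members, Myc, Mycn, Mxd1, Mxd4 and Mlx, where 37.3% of all genes were. The lowest of the 6 libraries was WT replicate 1 for 6 members and WT replicate 2 for the other 3. The same count was not made over all genes. WT replicate 1 is the library with the highest immunoglobulin share, 44.1%, and a link of this share to the lowest values was not tested.

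Ratios within a library do not depend on how libraries are scaled against each other. They compare transcript levels, and the balance of the proteins was not measured. Myc over Max was 1.86, 3.11 and 2.45 in dnTCF4 replicates 1, 2 and 3, against 3.16, 2.6 and 1.52 in WT. The groups covered the same range, with means of 2.47 ± 0.626 in dnTCF4 and 2.42 ± 0.834 in WT (SD over 3 libraries each; p = 1.0 in an exact two-sided permutation test). The summed RPKM of the antagonists Mxd1, Mxd3, Mxd4, Mxi1 and Mnt was 14.2, 13.9 and 14.4 in dnTCF4 and 9.25, 11.2 and 12.4 in WT. Unlike a ratio, this sum does depend on the scaling between libraries. Under median ratio scaling Mxd1 alone of its genes had groups that did not overlap, and without immunoglobulin genes none had. Myc over this sum was 1.42, 1.72 and 1.58 in dnTCF4, against 2.14, 1.95 and 1.76 in WT. The 3 dnTCF4 libraries were lower, with the nearest libraries of the 2 genotypes at 1.72 and 1.76. As a sum over members this ratio was not tested and is given as a description. Mxd4 alone made up 47.1% to 53.4% of the antagonist sum in dnTCF4 and 38.3% to 60.7% in WT.

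**Figure D3:**
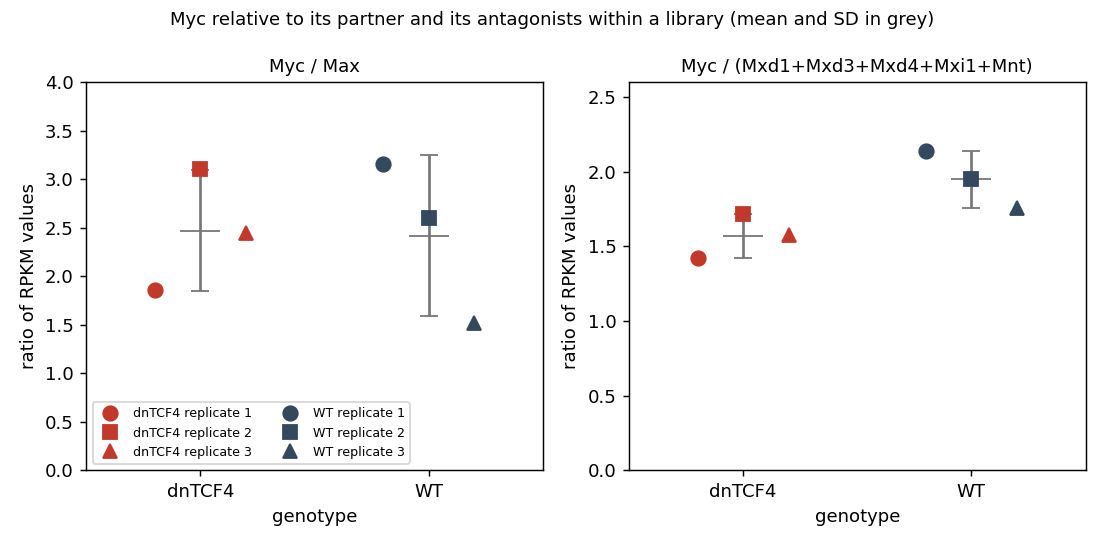
Ratio of Myc to Max (left) and of Myc to the summed antagonists (right), from RPKM values within each library, for dnTCF4 (red) and WT (dark blue), with mean and SD in grey. The Myc to Max ratios of the genotypes cover the same range, while the antagonist ratio lies at 1.42 to 1.72 in dnTCF4 and 1.76 to 2.14 in WT.

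The wider network held 3 more genes. Mga, a large MAX-binding repressor, was at 5.16, 7.18 and 8.63 RPKM in dnTCF4 and 4.47, 4.53 and 6.32 RPKM in WT (log2 fold change 0.38, SE 0.23, limma adjusted p = 0.65). Mlxip, also called MondoA and a sensor of sugar phosphates, was at 3.88, 5.28 and 6.64 RPKM in dnTCF4 and 3.67, 3.63 and 5.18 RPKM in WT (log2 fold change 0.27, limma adjusted p = 0.71). Both overlapped between the genotypes and were higher in dnTCF4 in each same-numbered pair. Mlxipl, its liver-enriched relative ChREBP, stayed below 0.1 RPKM in every library and was not tested.

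Genes that MYC is known to activate had a median log2 fold change near 0 in the deposited values, below that of all genes. Of 50 such genes, 49 were tested, 25 with higher and 24 with lower values in dnTCF4, where 68.5% of all genes were higher, and 0 were called. The median was 0.01, beside 0.14 for all genes, and -0.20 beside -0.05 under median ratio scaling. On that scale 7 were higher and 42 lower, where 41.5% of all genes were higher. E2f2, a cell cycle transcription factor, had the smallest p, at 1.85, 1.41 and 1.97 RPKM in dnTCF4 and 0.929, 0.912 and 1.40 RPKM in WT (log2 fold change 0.40, limma adjusted p = 0.52). It was the 1 activated target with an unadjusted p under 0.05, where 9.62% of all genes tested had one. Tfam, a mitochondrial DNA packaging factor, was at 6.08, 5.32 and 7.12 RPKM in dnTCF4 and 4.72, 4.41 and 5.25 RPKM in WT. Nop56, a nucleolar protein of ribosome assembly, was at 104, 97.8 and 34.1 RPKM in dnTCF4 and 90.8, 197 and 114 RPKM in WT, with groups that overlapped and dnTCF4 replicate 3 far below the other libraries. Rrp12, also of ribosome assembly, averaged 1.69 ± 0.391 RPKM in dnTCF4 and 2.41 ± 0.759 RPKM in WT. Odc1, the rate-limiting enzyme of polyamine synthesis, averaged 7.17 ± 2.25 and 7.26 ± 1.85 RPKM, and Ncl, which encodes nucleolin, 58.7 ± 16.1 and 66.5 ± 25.6 RPKM in dnTCF4 and WT (SD, n = 3 each). The libraries were uneven for this list: dnTCF4 replicate 3 was the lowest of the 6 for 16 of the 49 and the highest for 19, WT replicate 1 was the lowest for 19, and WT replicate 2 was the highest for 16. These counts were not made over all genes. Without WT replicate 1 the median was -0.18, beside 0.08 for all genes. Of the 41 activated targets with a promoter window, 12 held the E-box (29.3%), and the median log2 fold change of these was -0.06, beside 0.09 for the 952 tested genes with the E-box. Under median ratio scaling it was -0.30 beside -0.11.

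Genes that MYC is known to repress held the smallest p of these lists, that of Cdkn2c. Of 15 such genes 9 were tested, and 0 were called. Cdkn2c, the CDK inhibitor p18, was at 7.59, 5.59 and 9.71 RPKM in dnTCF4, against 3.77, 3.13 and 3.29 RPKM in WT. The groups did not overlap, and the log2 fold change was 0.95 (SE 0.22, limma adjusted p = 0.19) and 0.75 under median ratio scaling. Cdkn1b, the CDK inhibitor p27, was at 3.55, 4.58 and 4.08 RPKM in dnTCF4, against 1.90, 2.80 and 2.92 RPKM in WT (log2 fold change 0.53, limma adjusted p = 0.45). Gadd45a, a stress-induced growth arrest gene, was at 1.17, 1.46 and 1.44 RPKM in dnTCF4 and 0.857, 0.734 and 0.921 RPKM in WT (limma adjusted p = 0.48), and it passed the filter of a mean of 1 RPKM only because of its dnTCF4 level, with means of 1.36 RPKM in dnTCF4 and 0.837 RPKM in WT. Cdkn2c, Cdkn1b and Gadd45a, 3 of the 9, had an unadjusted p under 0.05, where 9.62% of all genes tested did. Gas2, a growth arrest gene, averaged 2.42 and 1.80 RPKM in dnTCF4 and WT. Cdkn1a, the CDK inhibitor p21 and a textbook MYC-repressed gene, averaged 2.96 RPKM in both genotypes (log2 fold change -0.01). Of the 9, 5 were higher and 4 lower, with a median of 0.28 beside 0.14 for all genes, and 0.07 beside -0.05 under median ratio scaling with the same split. Of all genes, 68.5% were higher in the deposited values and 41.5% under median ratio scaling. With no filter on low values all 15 were tested, 11 higher and 4 lower, where 20159 of all 30670 genes were higher. The median in that setting was 0.02, as it was for all genes.

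Cofactors, corepressors and regulators of MYC protein gave 0 calls as well. Of 13 cofactors of MYC transcription, 8 were higher and 5 lower in dnTCF4 (median 0.09), where 68.5% of all genes were higher. The split was 2 and 11 under median ratio scaling (median -0.11) and 3 and 10 without immunoglobulin genes (median -0.09). Of all genes, 41.5% and 46.6% were higher on these scales. Ruvbl2 and Ruvbl1, paired ATPases that bind MYC, were at 42.0, 37.9 and 13.9 and at 132, 118 and 37.0 RPKM in dnTCF4 replicates 1, 2 and 3, against 26.9, 87.5 and 46.8 and 96.9, 205 and 125 RPKM in WT. Both were lowest of the 6 libraries in dnTCF4 replicate 3, as Nop56 was, and highest in WT replicate 2. Pim1, a kinase that acts with MYC, averaged 28.6 and 20.3 RPKM in dnTCF4 and WT, and Bptf, a chromatin remodelling subunit, 7.26 and 6.04 RPKM. Of 12 tested genes of the SIN3 corepressor that MXD proteins recruit, 10 were higher and 2 lower (median 0.19), or 5 and 7 under median ratio scaling (median -0.01). Arid4a, a SIN3-associated subunit, was at 9.27, 10.7 and 12.8 RPKM in dnTCF4 and 8.27, 7.65 and 8.85 RPKM in WT (log2 fold change 0.35, limma adjusted p = 0.60). Ing2, Arid4b and Sap30 of the same complex had ratios of means of 1.30, 1.27 and 1.29 and overlapping groups. Of 11 tested regulators of MYC protein stability, 4 were higher and 7 lower (median -0.02), with the same split under median ratio scaling (median -0.20) and with 7 higher and 4 lower without WT replicate 3 (median 0.13). Among them, Skp2, a ubiquitin ligase subunit, averaged 7.45 ± 3.83 RPKM in dnTCF4 and 9.32 ± 2.00 RPKM in WT. Set, an inhibitor of the phosphatase PP2A, averaged 106 and 120 RPKM in dnTCF4 and WT, and Usp28, a deubiquitinase, 2.22 and 1.74 RPKM. None of the genes in these 3 lists had an unadjusted p under 0.05.

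Targets of MLX and its partners were described in the same way. Txnip, an inhibitor of glucose uptake and the best known MondoA target, was at 137, 218 and 153 RPKM in dnTCF4, against 119, 90.1 and 102 RPKM in WT. The groups did not overlap, and the log2 fold change was 0.68 (SE 0.23, limma adjusted p = 0.41) and 0.45 under median ratio scaling. The other 6 tested genes of this list of 9 overlapped between the genotypes. Fasn, the fatty acid synthase, averaged 1.95 and 2.85 RPKM in dnTCF4 and WT, Tkt, of the pentose phosphate pathway, 56.2 and 78.0 RPKM, and Klf10 16.5 and 23 RPKM. Of the 7, 2 were higher and 5 lower, where 68.5% of all genes were higher, with a median of -0.09 and 0 calls. Txnip alone, 1 of the 7, had an unadjusted p under 0.05, where 9.62% of all genes tested did. The median was -0.32 under median ratio scaling (1 higher, 6 lower), beside -0.05 for all genes, of which 41.5% were higher. By voom on recovered reads (6 tested) it was -0.35, beside 0.12 for all genes. It was -0.27 without dnTCF4 replicate 2, beside 0.15, and -0.04 without dnTCF4 replicate 3 (6 tested), beside 0.11.

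Proliferation genes, which rise in dividing cells, had 9 higher and 9 lower of 18 in the deposited values, where 68.5% of all genes were higher, with a median of 0.03, 0 calls and 0 with an unadjusted p under 0.05. Under median ratio scaling 4 were higher and 14 lower (median -0.18), where 41.5% of all genes were higher. The median was -0.16 without WT replicate 1 (5 higher, 13 lower), 0.19 without WT replicate 3 (10 higher, 8 lower) and -0.22 with replicates 2 and 3 only, so no direction is given for this list. Mki67 was at 16.1, 21.5 and 30.4 RPKM in dnTCF4 and 9.91, 18 and 26.7 RPKM in WT, and Cdk1, the mitotic kinase, averaged 85.7 and 67.9 RPKM. The replication helicase genes Mcm3, Mcm2 and Mcm5 averaged 152, 13.7 and 96.5 RPKM in dnTCF4 and 219, 17.2 and 133 RPKM in WT. All of these groups overlapped.

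**Figure D4:**
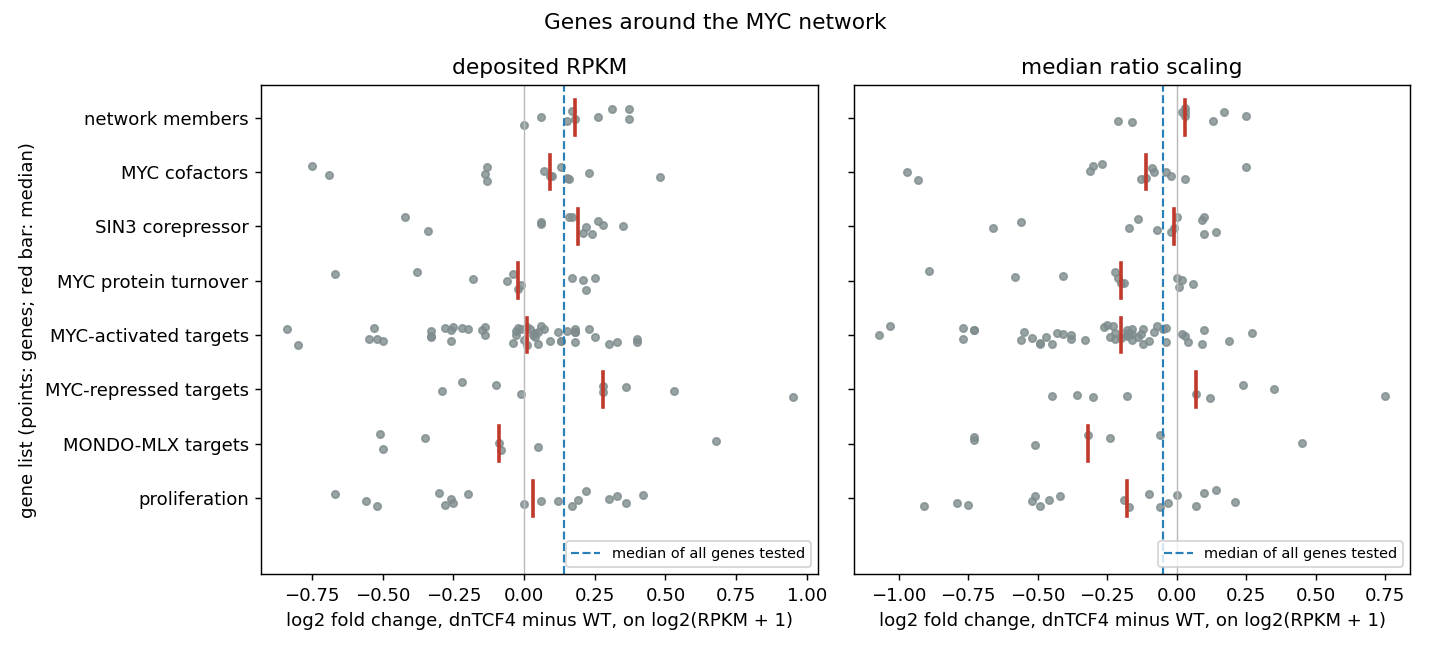
Log2 fold change (dnTCF4 minus WT, on log2(RPKM + 1)) of each tested gene (grey points, spread vertically for legibility) in the network and in 7 lists around it, with the list median (red) and the median of all genes tested (blue dashes), for deposited RPKM (left) and median ratio scaling (right). MYC-activated targets have a median below that of all genes on both scales (0.01 beside 0.14, and -0.20 beside -0.05), and Cdkn2c is the point farthest to the right.

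The genes whose pattern over the 6 libraries was most like that of Myc, among 6114 genes averaging 5 RPKM or more, were Zfp955b, Tpx2, Kif20b, Ect2 and Sgo1, with Pearson r on log2(RPKM + 1) of 0.991, 0.990, 0.984, 0.984 and 0.983. Tpx2 was at 30.9, 60.7 and 51.2 RPKM in dnTCF4 and 27.3, 40.7 and 44.2 RPKM in WT, low in replicate 1 of both genotypes as Myc was. With 6 points, 99 genes had an r over 0.9 with Myc. For Mycn they were Smim7, Cnpy4, Tmem50a, Gm45453 and C1d, with r of 0.996 for Smim7 and 0.994 for the other 4, and 493 genes had an r over 0.9. These points share the libraries, their depth and their immunoglobulin share.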

How the data were processed

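Libraries of 6 samples were prepared with the SMART-Seq v4 and Nextera XT kits per the labels' protocols, a chemistry without strand information. The authors deposited 1 table of RPKM values, scaled by them to gene length and library size. The submitters' processing notes list the builds GRCm38 and mm10 and the tools edgeR, DESeq2, featureCounts and STAR; their roles, versions and annotation are not stated there. The sample descriptions gave the sample of each column. Coordinates and exon lengths came from GENCODE M21 (49627 symbols matched), and RPKM times length fell on whole reads, within 0.02 of a read, for 94.4% to 95.2% of values up to 1000 reads, which gave the depths. Mxi1 did not fall on whole reads.

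Limma 3.58.1 (R 4.3.3) was run on log2(RPKM + 1) for genes averaging 1 RPKM or more (trend, two-sided, genotype as the only term, Benjamini-Hochberg over all genes tested). On log-normal data simulated for dnTCF4 against WT over 11326 genes, it called 29 of 100 genes changed 2-fold and 80 of 100 changed 4-fold, with 7 false calls. The changes were set on log2(RPKM + 1), in genes with a mean above 2 on that scale. Noise was drawn separately for each gene and library, with no shift of all genes between genotypes and no pairing of libraries. Mxd1, Mxd3, Mxi1 and Mnt lie below that level, so these counts do not cover them. Single values were compared by an exact permutation test, which cannot go below 0.1. The members and lists were chosen with earlier results of these data known. Genes named are the members, the extended network, 4 genes of smallest p per list, fixed examples and the 5 genes most like Myc and Mycn; Tcf7l2, Ddx3y, Psmc3ip, Prelid1 and the sort genes were added as checks. A gene that this rule selects is not reported here. Alternatives were other scalings, pseudocounts and filters, voom, a replicate block and fewer libraries. Deviations of same-numbered libraries correlated at 0.17, 0.35 and 0.30, all over 0.1, so the label numbers were taken to pair libraries. The main fit, its intervals and the permutation tests leave this pairing out, and the replicate block includes it. Python 3.11.15, pandas 2.3.3, numpy 2.4.6, scipy 1.17.1 and matplotlib 3.10.9 were used.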

Additional observations from a re-analysis of the deposited data

How the results depend on the processing

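The call of 0 members was the same in all 16 alternatives, and so was the call of 0 genes in each of the 7 lists around the network; adjusted p of the tested members ranged from 0.28 (Mxd1, replicate block) to 1.0. The count of all genes called was 34. It was 6 with no filter on low values, 18 under median ratio scaling, 0 without immunoglobulin genes (603 at an unadjusted p under 0.05), 17 by voom on recovered reads, 49 with the replicate block, 10 with replicates 2 and 3 only, and 7 to 34 without 1 library. The members' median log2 fold change of 0.18 was 0.03 under median ratio scaling and 0.05 without immunoglobulin genes, and 0.07 to 0.30 without 1 library. Signs turned for Myc (0.06) under median ratio scaling (-0.16) and without immunoglobulin genes (-0.13). They turned for Max (0.00) under the same settings (-0.21 and -0.18), quantile normalization (-0.08), voom (-0.06) and replicates 2 and 3 only (-0.35), and it ranged from -0.24 to 0.30 without 1 library. Mxd3 (0.15) turned with replicates 2 and 3 only (-0.14) and ranged from -0.12 to 0.38 without 1 library. Beyond the count of 49, the replicate block changed no call reported here. The log2 difference of Myc over Max (0.06) ranged from -0.25 to 0.28 without 1 library. Beyond leaving libraries out and the change of scale itself, the cause was not tested. With 3 libraries per genotype, 29 of 100 simulated 2-fold changes were called, at levels above those of Mxd1, Mxd3, Mxi1 and Mnt. The simulated data held neither the shift of all genes nor the pairing of libraries seen here. The reads of Mycl (25 to 72 per library) limit what its values can show.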
